A study of Mus musculus with 3 samples.

Results

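Small nucleolar RNAs (snoRNAs) and small Cajal body RNAs (scaRNAs) were examined in mouse liver 60 min after an injection of insulin, glucagon or PBS. Genes were taken whose symbol starts with Snord, Snora or Scarna and a digit and that have a probe set annotated with only 1 symbol, each by its brightest probe set. This gave 78 genes, 47 Snord, 26 Snora and 5 Scarna, of 22180 genes with such a probe set. The choice used symbols and brightness and no difference between arrays. Livers came from WT mice (C57BL6/J, 6 months of age, male by the study's text), and no group carried a genetic change. The 3 groups received PBS, recombinant human insulin at 0.75 U per kg body weight or glucagon at 50 ng per g body weight, all by the intraperitoneal route. The PBS and insulin mice were fasted by the study's methods, and whether the glucagon mice were is not stated. Each group was 1 array of pooled RNA, from 5 mice by the labels, and the study's methods give another number for PBS and insulin and none for glucagon. There are thus no replicates, no value below has an error between animals, and no test between groups was possible.

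Box C/D snoRNAs, the Snord genes, guide the methylation of ribose in ribosomal RNA, and box H/ACA snoRNAs, the Snora genes, guide the conversion of uridine to pseudouridine. scaRNAs do the same for the RNAs of the spliceosome, in the Cajal bodies of the nucleus. Most of these RNAs in mammals are cut out of the introns of host genes, many of which code for ribosomal proteins and translation factors or are long noncoding RNAs, so the liver makes them along with its machinery for protein synthesis. A probe set in such an intron can read the mature RNA and the unspliced host transcript, and these cannot be told apart here.

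In the part of the genome searched, RefSeq sequences (GRCm38.p6) of microRNA hairpins overlapped 2 of the 78 genes. The 2 hairpins are shown because for these genes the signal can come from either RNA. Part of the genome was left out of the search, so others of the 78 genes may overlap a hairpin too. Capitals mark the bases that lie inside the snoRNA gene. Snora34 shares 73 bases with the hairpin of Mir1291 (chr15:98519762-98519878, minus strand), and Snora19 lies whole, with 56 bases, in the hairpin of Mir3084-2 (chr19:60774329-60774397, minus strand).
Snora34 in Mir1291: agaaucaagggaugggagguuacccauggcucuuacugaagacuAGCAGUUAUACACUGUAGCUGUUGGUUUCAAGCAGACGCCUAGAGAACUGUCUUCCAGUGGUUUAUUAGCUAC
Snora19 in Mir3084-2: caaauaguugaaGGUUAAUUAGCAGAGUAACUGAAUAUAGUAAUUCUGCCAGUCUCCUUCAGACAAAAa
The annotated Snora19 gene ends 3 bases after its last ACA, the triplet that gives the H/ACA class part of its name. Snora19 was the dimmest of the 78 genes, with log2 signals of 1.84 for PBS, 1.96 for glucagon and 1.60 for insulin. Snora34 read 7.72, 7.52 and 7.51 in the same order, so its signal was highest on the PBS array and near equal on the other two.

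The 3 arrays were alike in scale, with median log2 signals over 41345 probe sets of 3.07 for PBS, 3.05 for glucagon and 3.06 for insulin. A protocol label names ovarian RNA, so the tissue was checked by markers. The 6 hepatocyte genes had a median signal of 11.9, and the 5 measured ovary genes lay between 2.03 and 3.56, below the hepatocyte genes in every case. Of the 4 neuron genes, checked because some snoRNA clusters are known from brain, 3 lay under 4 and Syt1 read 5.87.

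The snoRNA and scaRNA genes were among the brighter features of the array. Their mean log2 signal over the 3 arrays ran from 1.80 to 12.2 with a median of 7.63, against 3.53 for all other named genes, and 55 of 78 reached 6. The signal of a probe set depends on its probes as well as on the RNA, so this order is one of signal and not of molecules. Between 6 and 7 of the 78 genes lay below the array median on each array, and lack of detection cannot be told from a weak probe for those. The annotated genes were 48 to 248 bases long with a median of 80.5, and Spearman's rho of length and signal was -0.003 across the 78 genes, 0.14 within Snord and 0.33 within Snora. Snora33 illustrates the part of the probes. Its chosen probe set read 12.26 for PBS, 12.09 for glucagon and 12.23 for insulin, and its other probe set read 4.42, 4.14 and 4.41, so both were lowest with glucagon at very different signals.

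**Figure D1:**
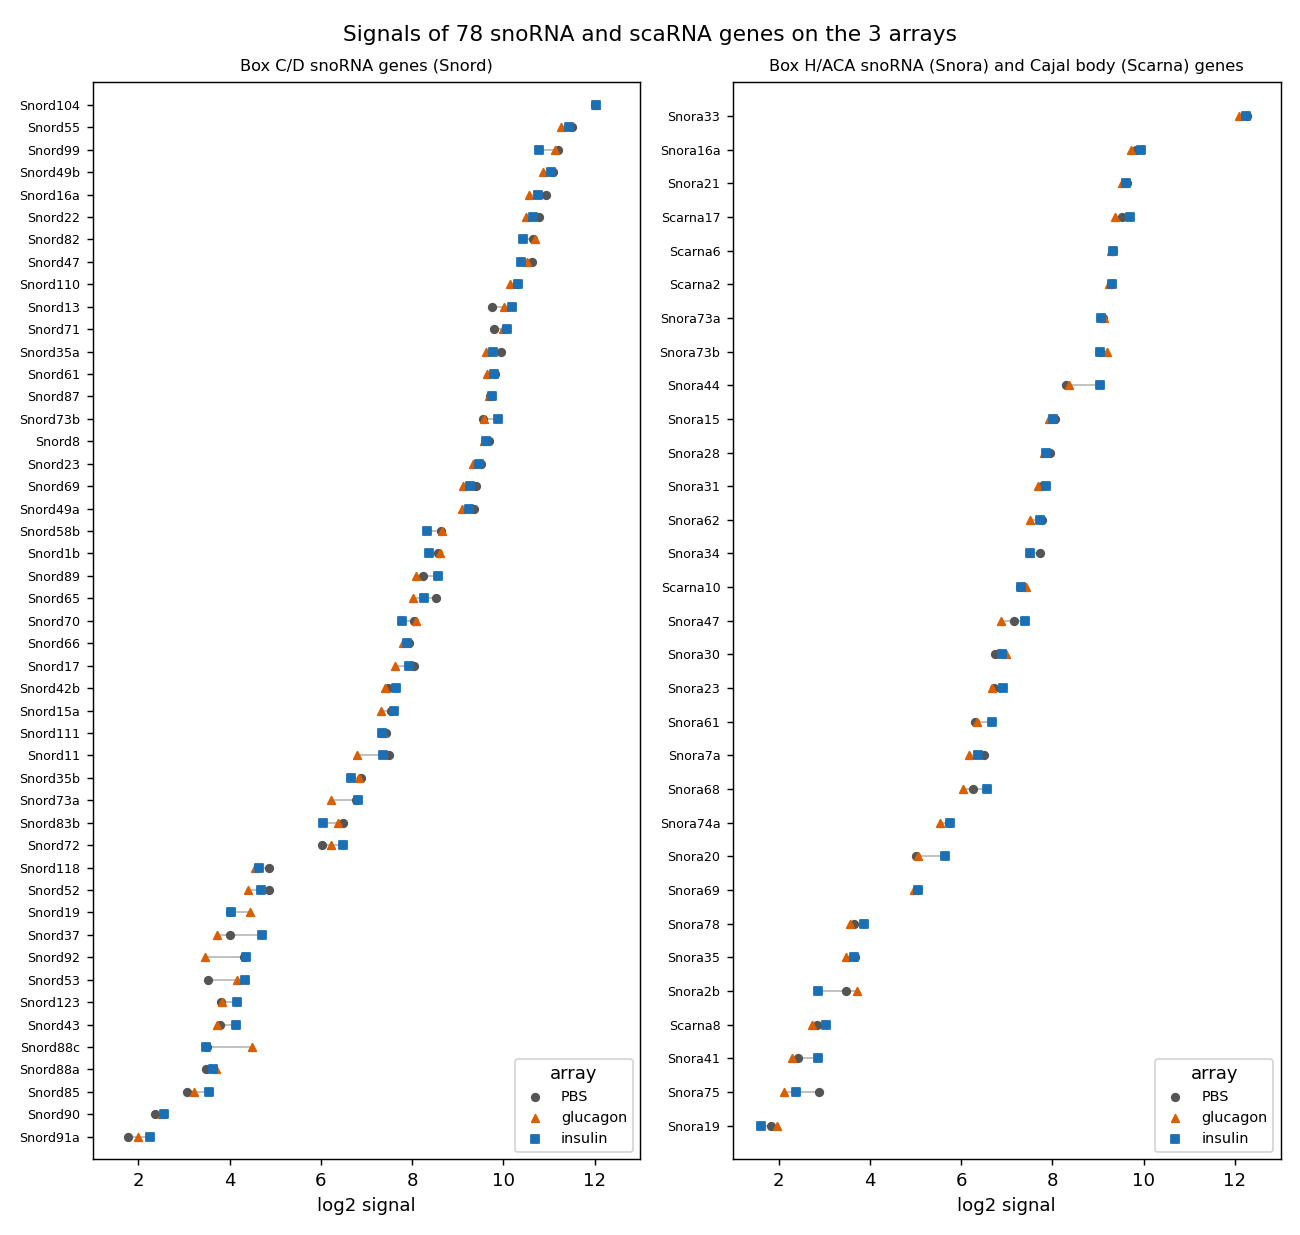
Log2 signal (x axis) of each of the 78 genes on the PBS (circle), glucagon (triangle) and insulin (square) arrays, 1 array per group, with Snord genes on the left and Snora and Scarna genes on the right, sorted by mean signal. The 3 symbols of most bright genes lie close together, and the wider gaps belong mainly to genes under a signal of 6.

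The 10 brightest genes differed little, and none differed by 0.4 on the log2 scale between any pair of arrays. Snora33, in an intron of the ribosomal protein gene Rps12, led with the values given above. Snord104, held by the noncoding gene Gm36220, read 11.998 for PBS, 12.03 for glucagon and 12.02 for insulin, the smallest range of all 78 genes. Snord55, a box C/D RNA, read 11.50, 11.26 and 11.45 in the same order, lowest with glucagon. Snord99, held by the noncoding host Snhg12, read 11.19, 11.13 and 10.79 and was lowest with insulin. Snord49b, in the noncoding 2410006H16Rik, read 11.10, 10.88 and 11.05. Snord16a, from the ribosomal protein gene Rpl4, read 10.94, 10.56 and 10.77, again with glucagon lowest. Snord22, from Snhg1, read 10.78, 10.49 and 10.64. Snord82, from the nucleolin gene Ncl, read 10.65, 10.69 and 10.43, and Snord47, from the growth-arrest gene Gas5, read 10.64, 10.52 and 10.39, both lowest with insulin. Snord110 lies in Nop56, whose product is itself a core protein of the box C/D particle, and it read 10.29, 10.14 and 10.33. Of these 10 genes, those lowest on the glucagon array were Snora33, Snord55, Snord49b, Snord16a, Snord22 and Snord110.

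Insulin against PBS addressed the response of the fasted liver to insulin. No gene of the 78 passed 2-fold, as did 0.388% of all genes, and none fell below 0.5-fold, as did 0.216%. Their median log2 ratio was 0.007, the same as over all genes, and 38 lay below 0 (48.7% of all genes did). The highest ratio was that of Snord53, a box C/D RNA, which read 3.52 with PBS, 4.17 with glucagon and 4.35 with insulin, a log2 ratio of 0.83. Next came Snora44, a bright box H/ACA RNA of the Snhg12 gene, at 8.30, 8.37 and 9.05 in the same order. Its insulin signal stood apart by 0.75 from PBS while PBS and glucagon nearly coincided. The lowest ratio was that of Snora2b in the chromatin gene Kansl2, with 3.47, 3.72 and 2.87, lower with insulin by -0.61 on the log2 scale.

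To read a ratio against genes of like signal, a window was built for each gene that holds the middle 95% of ratios among its 500 neighbours in mean signal. For insulin against PBS, 7 of 78 genes lay outside their window, and 5.32% of all genes did. The 5 above it were Snord53, Snora44, Snord37, Snora20 and Snord91a, and the 2 below it were Snora2b and Snora75. Of these 7, Snora44 was the sole gene with a mean signal of at least 6. Snora20, an H/ACA RNA in the chaperonin gene Tcp1, read 5.0001 with PBS, 5.05 with glucagon and 5.65 with insulin, the same shape as Snora44. Snora75, from Ncl, read 2.89, 2.11 and 2.38 and was thus lower on both hormone arrays.

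Glucagon against PBS set the counter-regulatory hormone beside the same PBS array. Again none of the 78 genes passed 2-fold (0.185% of all genes) or fell below 0.5-fold (0.153%). Their median log2 ratio was -0.10, against 0.001 over all genes, and 52 of 78 lay below 0, against 49.6% of all genes. Pooled tissue gives 1 value per array, so fewer cells that hold an RNA and less RNA per cell cannot be told apart in any of these ratios. By class, 30 of 47 Snord genes, 18 of 26 Snora genes and 4 of 5 Scarna genes were lower with glucagon. Among the 55 genes with a mean signal of at least 6 the median was -0.12, while the other 4604 named genes this bright had a median of 0.06. The 23 dimmer genes had a median of -0.06, and the 17498 other dim genes -0.02.

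Outside their windows lay 9 of 78 genes in this comparison, with 5.4% of all genes outside. The 7 below were Snora75, Snord11, Snord17, Snord65, Snord69, Snord73a and Snord92, 5 of them bright, and the 2 above were Snord53 and Snord88c. Snord11, a box C/D RNA of the Nop58 gene, read 7.49 with PBS, 6.80 with glucagon and 7.37 with insulin, a log2 ratio of -0.69 for glucagon. Snord73a, of the ribosomal protein gene Rps3a1, read 6.76, 6.22 and 6.81 in the same order. In both, PBS and insulin lay close together and glucagon stood alone below. Snord65, of 2410006H16Rik, read 8.52, 8.02 and 8.27, Snord17, of the sorting nexin gene Snx5, 8.03, 7.62 and 7.94, and Snord69, of the nucleostemin gene Gnl3, 9.41, 9.11 and 9.26. For these genes the insulin signal fell between the other arrays. The largest ratios belonged to dim genes. Snord92 read 4.31, 3.47 and 4.35, the lowest ratio at -0.84, and Snord88c read 3.51, 4.48 and 3.49, the highest at 0.97. Each had the glucagon array alone apart from a close pair.

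**Figure D2:**
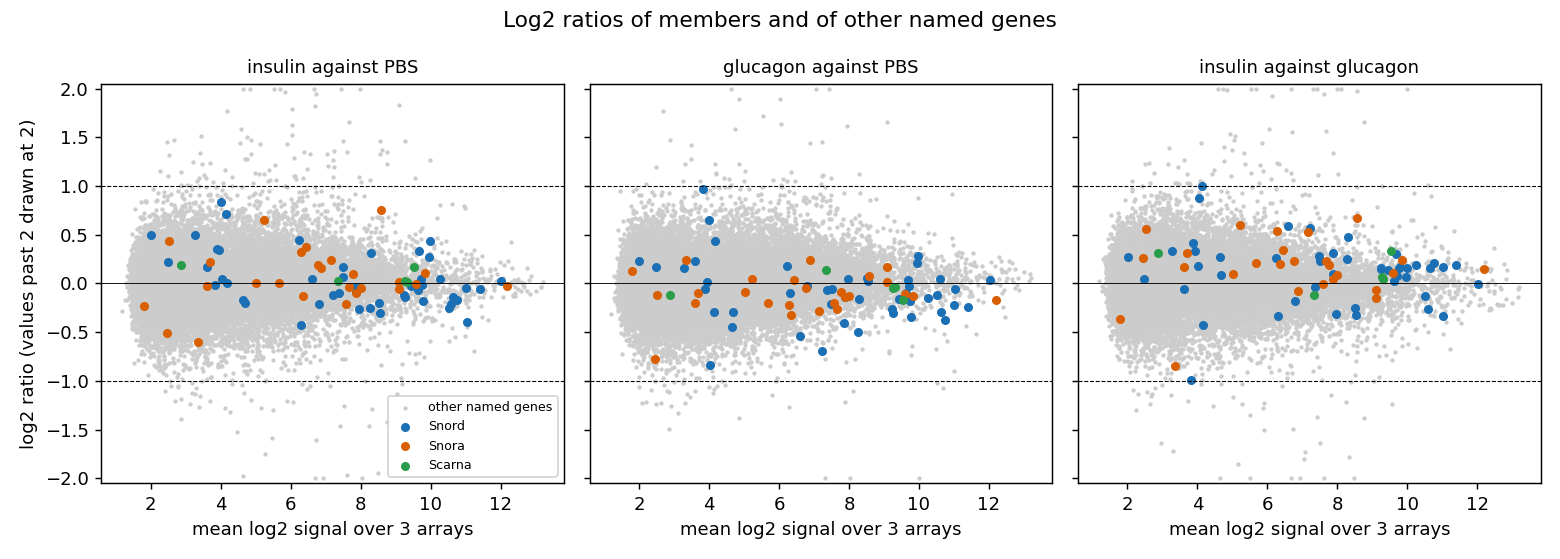
Log2 ratio (y axis) against mean log2 signal over the 3 arrays (x axis) for insulin against PBS (left), glucagon against PBS (middle) and the hormones against each other (right), with the 78 genes coloured by class over all other named genes in grey. Dashed lines mark 2-fold and 0.5-fold, ratios past 2 are drawn at the edge, and the points of the 78 genes lie more often below 0 in the middle panel (52 of 78) and above 0 in the right panel (58 of 78).

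Insulin against glucagon used the same glucagon array, so its ratios are not independent of those above. Here 1 of 78 genes passed 2-fold (0.293% of all genes) and none fell below 0.5-fold (0.194%). The gene was Snord37, held by the elongation factor gene Eef2, and it read 4.003 with PBS, 3.72 with glucagon and 4.72 with insulin. Its log2 ratio of 1.0001 lay on the limit itself and dropped below it when the arrays were centred on their medians or quantile normalized. Just inside the lower limit was Snord88c at -0.99, and it passed that limit with median centring. The median log2 ratio was 0.16, against 0.006 over all genes, and 20 of 78 genes lay below 0, against 48.5% of all genes. Outside their windows were 11 genes, with 5.44% of all genes outside. The 9 above were Snora20, Snora41, Snora44, Snora47, Snora68, Snord11, Snord37, Snord73a and Snord92, 5 of them bright, and the 2 below were Snora2b and Snord88c. Snora68, a box H/ACA RNA, read 6.25, 6.03 and 6.57, and Snora47, which lies in Zbed3, read 7.17, 6.88 and 7.41. In both genes the PBS signal lay between the hormone arrays.

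The array with the lowest of the 3 signals was counted for each gene, a description chosen after the values had been seen. It was the glucagon array for 46 of 78 genes, the PBS array for 18 and the insulin array for 14, and the glucagon array was lowest for 33.8% of all genes. The count was 25 of 47 for Snord, 17 of 26 for Snora and 4 of 5 for Scarna. Among the 55 bright genes it was 34, while of all 4659 genes this bright 25.8% were lowest with glucagon and 44.2% with PBS. MicroRNA genes as a whole did not stand out at 35.2% of 472, but of the 17 with a mean signal of at least 6 it was 10. Ribosomal protein genes gave 26 of 67. With the genes of 1 host averaged to 1 value, glucagon was lowest for 43 of 64. Genes on the same 3 arrays are no replicates of a hormone, and whether another pool of glucagon livers would show this was not tested.

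**Figure D3:**
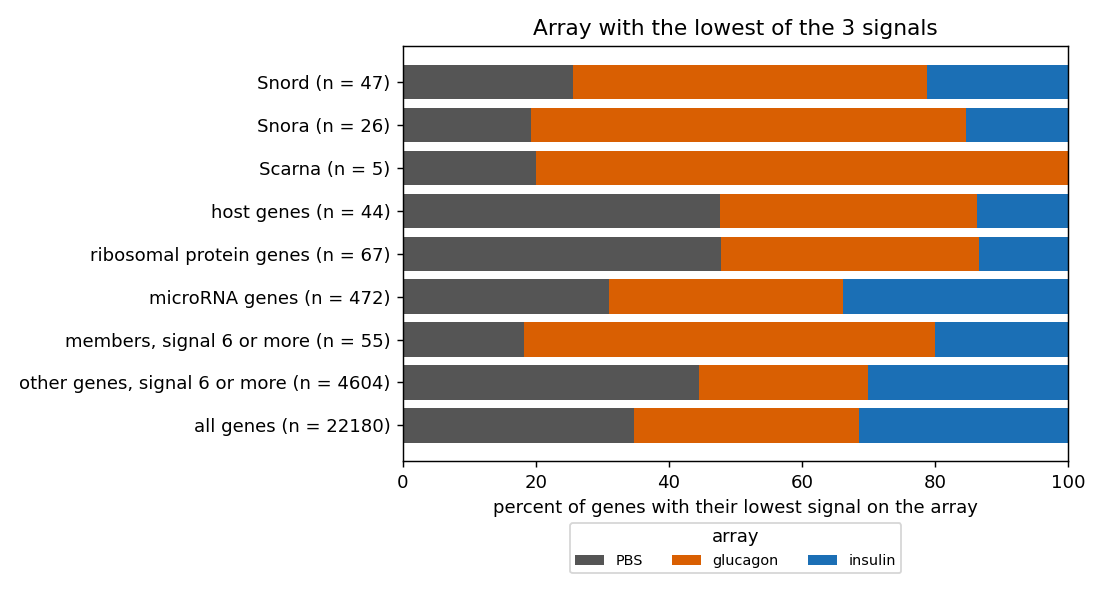
Share of genes (x axis, percent) whose lowest signal of 3 was on the PBS (grey), glucagon (orange) or insulin (blue) array, for the 3 classes, their host genes, ribosomal protein genes, microRNA genes, bright genes and all genes, with the number of genes beside each bar. The glucagon share is 53.2% for Snord, 65.4% for Snora and 80.0% for Scarna, against 33.8% of all genes.

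The spread of the ratios across genes was set beside that of other named genes of like signal. The SD of the log2 ratio across the 78 genes was 0.277 for insulin against PBS, and that of other genes, weighted to the same signals in bins of 1 log2 unit, was 0.284, a quotient of 0.977. For glucagon against PBS the SDs were 0.272 and 0.270, a quotient of 1.01, and between the hormones 0.318 and 0.274, a quotient of 1.16. The near equality for the first 2 comparisons was one of SDs. With the range that holds the middle 68% of ratios in place of the SD, the quotients were 1.29, 1.065 and 1.12 in the same order. With the middle 95% they were 1.08, 1.25 and 1.37. The quotients of SDs also hid a split by brightness. For the 55 genes with a mean signal of at least 6 the quotients were 0.797, 0.733 and 0.878 in the same order, so by the SD their ratios were spread less than those of other bright genes. An SD takes in extreme values, and the ratios of other bright genes ran from -2.72 to 4.14 for insulin against PBS. No spread from a central range was computed for the bright genes, so a lower spread by that measure was not tested. For the 23 dimmer genes the quotients of SDs were 1.21, 1.38 and 1.60. Between 9 and 10 on the signal axis, where the most of these genes lay (17), their SD was 0.170 for insulin against PBS and that of 326 other genes was 0.283. Not every bright bin had this order. Between 8 and 9 the SD was 0.458 for 5 genes, Snora44 among them, against 0.295 for 697 others, and between 11 and 12 it was 0.199 for 3 genes against 0.174. For insulin against glucagon the SD between 8 and 9 was 0.442 against 0.283. Between 4 and 5 for insulin against PBS it was 0.453 for 6 genes, against 0.327 for 2498 others. Against microRNA genes of like signal, which 59 of the 78 had, the quotients were 0.931, 0.872 and 1.06. No microRNA gene lay between 9 and 10, so the 17 genes there were left out. MicroRNA genes numbered only 1 between 8 and 9, 2 between 10 and 11 and 1 between 11 and 12. They stood for 5, 5 and 3 of the 59 genes, so at high signal this comparison rests on few microRNA genes.

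**Figure D4:**
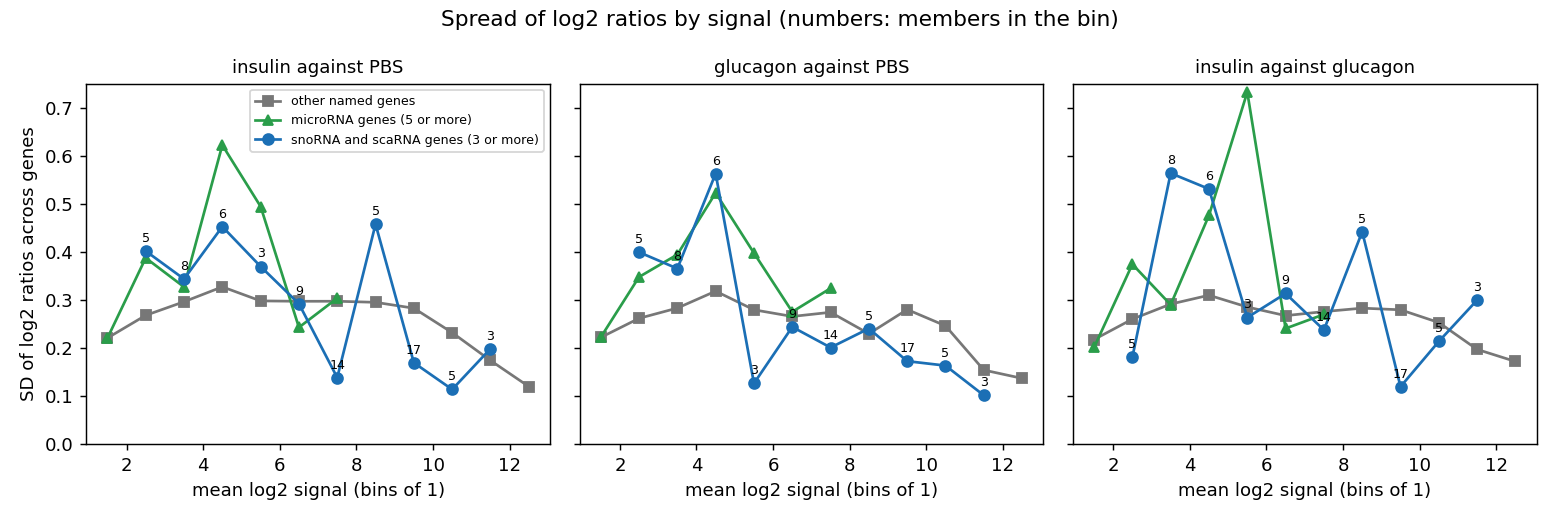
SD of the log2 ratio across genes (y axis) in bins of mean log2 signal 1 unit wide (x axis) for the 3 comparisons, for snoRNA and scaRNA genes (blue, number of genes above the point), other named genes (grey squares) and microRNA genes (green triangles). Between 9 and 10 the blue point lies below the grey one in each panel, as with 0.170 against 0.283 for insulin against PBS, and between 8 and 9 above it, as with 0.458 against 0.295.

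Some genes gave nearly the same signal 3 times. The range over the 3 arrays was at most 0.2 for 20 of the 78 genes, 18 of them bright, and at most 0.5 for 65. The share of other genes within these ranges was not computed, so the counts do not set the 78 genes apart. Of the bright genes Snord104 had the smallest range at 0.033. Scarna6, which lies in the autophagy gene Atg16l1, read 9.32 with PBS, 9.28 with glucagon and 9.33 with insulin, and Scarna2, for which no spanning host was found, read 9.28, 9.24 and 9.30. Snora73a and Snord87 followed with ranges of 0.065 and 0.076. These genes differed less among the 3 arrays than the SD of the ratios of other genes of their signal. At the other end of the bright genes stood Snora44 at 0.749, Snord11 at 0.689, Snord73a at 0.585, Snora68 at 0.540 and Snora47 at 0.523. The array that stood alone was insulin for Snora44 and glucagon for Snord11 and Snord73a.

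A few snoRNAs have roles in the making of ribosomal RNA beyond these modifications, among them the cutting of its precursor. Of these, 5 genes were measured. None passed a limit in any comparison, and of all 78 genes only Snord37 did. Snord13, known as U13, read 9.74 with PBS, 10.02 with glucagon and 10.18 with insulin, higher on both hormone arrays. Snord118, the U8 RNA, known from frog oocytes to be needed for the large subunit RNAs, read 4.85, 4.56 and 4.65, lower on both. Snord22, given above, was likewise highest with PBS. Snora73a and Snora73b, copies of the U17 RNA held by Snhg3, differed little from each other and across arrays. Snora73a read 9.11, 9.12 and 9.06, and Snora73b read 9.04, 9.20 and 9.05. The copies are similar in sequence, so their probe sets may share RNA and are not independent.

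The Rpl13a gene holds several box C/D RNAs that are known from the response of rodent cells to excess fatty acid. Only Snord35a had a probe set of its own, at 9.96 with PBS, 9.61 with glucagon and 9.78 with insulin, highest with PBS. Of the Gas5 introns, Snord47 alone was measured this way. No gene of the lists for the Hspa8 introns or the imprinted, brain-enriched clusters had a probe set with 1 symbol. The 5 scaRNAs were all slightly higher with insulin than with PBS, by 0.01 to 0.19 on the log2 scale, and 4 of 5 were lower with glucagon than with PBS. Of all genes, 48.7% lay below 0 for insulin and 49.6% for glucagon. The insulin ratios of Scarna6, Scarna10 and Scarna2 were 0.01, 0.02 and 0.02. For insulin, the SD across other genes was 0.283 between 9 and 10 in signal and 0.297 between 7 and 8. Scarna17, a guide for spliceosomal RNA, had the widest range among the 5 scaRNAs, with 9.53, 9.37 and 9.70. Its second probe set read 8.73, 8.59 and 8.86, the same order of arrays. Scarna8, dim at 2.85, 2.73 and 3.04, showed that order too. Scarna10, from the condensin gene Ncapd2, read 7.29, 7.43 and 7.31, with glucagon highest.

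Host genes were taken from the RefSeq gene table as the gene whose span holds the snoRNA gene. A host was taken for 69 of the 78 genes, of which 52 lay in protein-coding genes and 17 in long noncoding ones. Of the 69, 18 lay in 16 ribosomal protein genes, and 58 had a measured host, 44 hosts in all. Across these 58 pairs the log2 ratio of the snoRNA and that of its host had a Pearson's r of -0.018 for insulin against PBS, 0.019 for glucagon against PBS and -0.029 between the hormones. The mean signals had an r of 0.056. Mean signals of the 44 hosts ran from 1.89 to 11.3 with a median of 6.78, and no pair was left out for a dim host. Rpl39, for example, had a mean signal of 3.06, and a ratio of such a dim host may not follow its transcript. An r near 0 thus does not show that the snoRNAs and their hosts differ in regulation. The pairs share the arrays, and 25 of the 78 genes share a host with another, so this describes these libraries and is not a test. The median ratio of the 44 hosts was 0.13 for insulin against PBS and 0.02 for glucagon against PBS. The snoRNA lay below its own host in 41 of 58 pairs for insulin and in 43 of 58 for glucagon. The glucagon array was lowest for 17 of the 44 hosts.

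**Figure D5:**
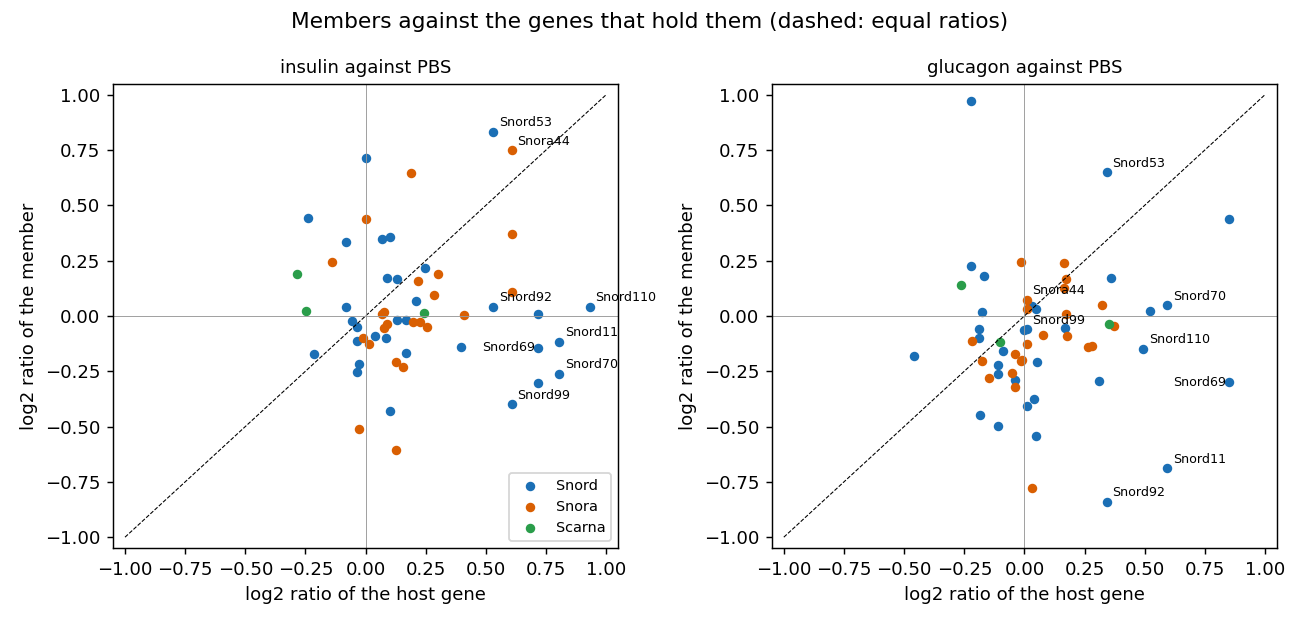
Log2 ratio of each snoRNA or scaRNA gene (y axis) against that of its host gene (x axis) for insulin against PBS (left) and glucagon against PBS (right), for the 58 genes with a measured host, coloured by class, with equal ratios on the dashed line. More points lie below the line than above it (41 and 43 of 58). On the left Nop56 and Nop58, the hosts with the highest ratios, hold snoRNAs with ratios near or below 0. Other hosts with high ratios differ, with Snora44 of Snhg12 at 0.75 and Snord53 of Wdr43 at 0.83 on the left. On the right Gnl3, the host with the highest ratio, holds Snord19 at 0.44 and Snord69 at -0.30.

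The genes with the same host often differed from it and from each other. Of the 78 genes, 25 lay in 11 hosts with several, and their ratios lay on both sides of 0 in 5 hosts for insulin against PBS and in 7 for glucagon against PBS. No such count was made for genes without a common host, so whether these counts are many or few was not tested. Snhg12 held 4 of the 25. The host itself read 3.89 with PBS, 3.90 with glucagon and 4.49 with insulin, a log2 ratio of 0.61 for insulin. Its Snora44 had a ratio of 0.75, Snora61 one of 0.37, Snora16a one of 0.11 and Snord99 one of -0.40, so the gene with the brightest signal went the other way. The Nop58 gene read 6.34, 6.93 and 7.14 and was higher on both hormone arrays. Its Snord70 read 8.03, 8.08 and 7.77, and Snord11 was lowest with glucagon as given above, so neither had the host's order. Gnl3 had ratios of 0.72 for insulin and 0.85 for glucagon. In it Snord69 had -0.14 and -0.30, and Snord19, dim at 4.02, 4.45 and 4.03, had 0.01 and 0.44. Wdr43, a factor for ribosomal RNA processing, had 0.53 and 0.34. Its Snord53 had 0.83 and 0.65, the same side as the host, and Snord92 had 0.04 and -0.84. In 2410006H16Rik, by contrast, Snord49a, Snord49b and Snord65 all lay below 0 for insulin, from -0.25 to -0.05, and for glucagon, from -0.50 to -0.22, and the host was at -0.03 and -0.11.

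Many host genes of snoRNAs are known to start transcription at a C within a run of pyrimidines, so the 30 bases around the RefSeq start (GRCm38.p6) were searched for a run of at least 5 bases, all C or T, that begins with C within 5 bases of the start, on the strand of the gene. The run stood in 14 of 43 host genes with a promoter in the table, 32.6%, and in 18.5% of all 27025 promoters. Of the hosts, it stood in 2 of 9 ribosomal protein genes, 22.2%, and in 12 of 34 others, 35.3%. Each run was taken from a C within 5 bases of the annotated start, so a longer stretch of C and T could begin further off. Stretches without such a C were not counted. The windows of the 5 hosts whose snoRNA sets are described above are shown, 5′ to 3′, because the snoRNAs of 1 host gave different ratios. Capitals mark the run where there is one.
Snhg12: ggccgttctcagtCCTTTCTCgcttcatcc
2410006H16Rik: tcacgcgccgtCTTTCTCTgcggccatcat
Nop58: tatttgctgctccacgaggagaggtgtgga
Gnl3: cgtaaatccaacctgtggccgccaggcgag
Wdr43: accccgcgccggtgcgcctgcgcccgggcg
Snhg12 and 2410006H16Rik both hold the run, and their snoRNAs spread from -0.40 to 0.75 and from -0.25 to -0.05 for insulin against PBS. Nop58, Gnl3 and Wdr43 lack such a run in this window. A match is a description of letters and shows no use of the site.

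The proteins that build and mature these particles were measured beside them, and no gene passed a limit among 11 of the box C/D particle, 6 of the H/ACA particle, 16 of maturation and nuclear bodies or 13 of RNA polymerase I. Fbl, also on the box C/D list, was not among the 11. Of all genes, 0.388% passed 2-fold and 0.216% fell below 0.5-fold for insulin against PBS, and fewer did in the other comparisons. Lists this small would hold few such genes at these shares, so the counts do not set them apart. The median log2 ratios of the lists for insulin against PBS were 0.22, 0.09, 0.13 and 0.18, against 0.007 for the snoRNA and scaRNA genes and 0.007 over all genes. For glucagon against PBS the list medians were 0.22, 0.08, 0.13 and -0.01, against 0.001 over all genes. Of the box C/D core proteins, Nop56 read 5.88 with PBS, 6.37 with glucagon and 6.81 with insulin, just inside the limit at 0.93, and Nop58 was given above. Snu13, which binds the box motif, read 6.87, 7.10 and 7.13. These were highest with insulin. Of the 11 genes of this list, 8 were higher with insulin than with PBS and 3, Rpap3, Ruvbl2 and Znhit6, were lower, with log2 ratios of -0.29, -0.04 and -0.14. Of the H/ACA core, the pseudouridine synthase gene Dkc1 read 5.04, 5.23 and 5.08, Nhp2 read 5.96, 5.96 and 5.94, and Nop10 read 8.83, 8.92 and 8.97. Gar1, the remaining core protein, read 4.77, 4.84 and 4.43 and was lowest with insulin, with a wider range than the others. The highest ratio among the maturation genes, chosen after its values were seen, was that of Nolc1, the Nopp140 protein that shuttles between nucleolus and Cajal body, at 5.67, 6.45 and 6.61. Among 19 noncoding host genes 1 passed 2-fold for insulin against PBS, as did 0.388% of all genes, and the same gene passed it against glucagon (0.293%). It was Snhg15, which read 2.86, 3.16 and 4.20, with log2 ratios of 1.34 and 1.03. Its PBS signal lay below the array median of 3.07, where a weak signal cannot be told from lack of detection.

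A further 46 probe sets name a snoRNA or scaRNA together with other genes and were left out of the counts, since their signal has no single source. They named 30 more symbols, and 16 of the 46 named the copies Snord116l1 and Snord116l2. The brightest, Snord32a with Rpl13a, read 12.45 with PBS, 12.25 with glucagon and 12.30 with insulin, highest with PBS like Snord35a of the same host. The shared probe sets of Snord33 and Snord34, also with Rpl13a, were highest with insulin. In the same order they read 7.59, 7.27 and 7.77 for Snord33 and 8.42, 8.53 and 8.56 for Snord34. With the shared probe sets added, glucagon was lowest for 64 of 107 genes.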

How the data were processed

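Hepatic RNA was hybridized to Mouse Gene 2.0 ST arrays, and the authors summarised probe signals by the robust multichip average (RMA) and deposited log2 signals, with 1 value for each probe set on each array. The set of arrays summarised jointly and the genome build are not given in the sources used here. Values were used as deposited, and a ratio is a difference of log2 signals. Probe sets were named by GEO's platform annotation, and all 78 genes had a gene ID in the RefSeq table (GRCm38.p6), which gave lengths and hosts. That table has no strand, so hosts were taken by span alone, with none where several genes span, except Gas5. No test was made with 1 array per group. The genes and lists were chosen with earlier results of these data known, and the windows, the count of lowest arrays and the average per host after the data were seen.

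Named are genes past a limit, the 10 brightest, the measured genes of the role lists, the 5 smallest and 5 largest ranges among bright genes, their hosts, and core proteins, and some hosts are not reported here. Other genes were named after their values were seen. Alternatives covered scaling, filters, probe sets, fold limits and measures of spread. The spread calculation was run on simulated normal ratios with the same SD at every signal. That run could not check the weighting by signal or the effect of extreme ratios. Python 3.11.15, numpy 2.4.6, pandas 2.3.3, scipy 1.17.1 and matplotlib 3.10.9 were used.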

Additional observations from a re-analysis of the deposited data

How the results depend on the processing

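Of 97 alternative values, 82 stayed within the bounds set for them, 15 moved and 0 reversed. A count moved if it changed more than 1.5-fold or to or from 0, and a quotient of spread if it changed more than 1.2-fold. A median moved if it changed by 0.1 or more. Only medians could reverse, and only with both values away from 0, so the tally is no proof of stability. With limits of 1.5-fold, the counts of snoRNA and scaRNA genes were 4 higher and 1 lower for insulin against PBS, 2 and 3 for glucagon against PBS, and 4 and 2 for insulin against glucagon. The share of all genes past 1.5-fold was not computed, so these counts cannot be called many or few. The single gene above 2-fold for insulin against glucagon became 0 with median centring, with quantile normalization and with genes of a mean log2 signal of at least 6, and the count below 0.5-fold became 1 with median centring. With genes of a signal of at least 6, the quotients of spread were 0.797, 0.733 and 0.878. A spread taken from the central 68% range in place of the SD gave 1.29 for insulin against PBS, and one from the central 95% range gave 1.25 for glucagon against PBS. The cause was not tested. The medians of the log2 ratios stayed within 0.1 of the reported ones under each setting. That bound is wide for insulin against PBS, where the median of 0.007 became -0.016 with quantile normalization. It was -0.027 with genes of a signal of at least 6, so its sign was not stable. The glucagon array was lowest for 51 of 78 genes after quantile normalization. No gene of the multi-copy families Snord113 to Snord116 was among the 78, so that setting gave no value. No paired analysis was possible because the groups hold 1 array each. The number of arrays limits the precision of every ratio, and probe sets near the array median have no order.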
